A study of Homo sapiens with 8 samples.

Results

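ANKRD11, POGZ, TSHZ1 and BAHCC1 encode nuclear proteins that regulate transcription through corepressors and chromatin. For each, the authors list several features in a comparison of N6-methyladenosine (m6A) signal on RNA between decitabine and DMSO in HL-60 cells. The 19 features described here are every row under these 4 gene names among the 4626 features and 3114 gene names of the authors' deposited table. The 4 genes were chosen by their role and because each holds 4 or more features there. The feature number was thus part of the choice, and the values below are a description with no test. HL-60 is an established human promyelocytic leukaemia line, here of wild-type genotype. It was given decitabine, a deoxycytidine analogue that depletes DNA methyltransferases, to 100 nM on 3 occasions, 24 hours apart and starting at 0 hours, or DMSO, its vehicle. RNA was taken from all cultures at 72 hours and measured by MeRIP-seq, in which fragmented RNA is pulled down with an anti-m6A antibody and sequenced beside its input. There are 8 libraries, 2 for each of m6A with decitabine, input with decitabine, m6A with DMSO and input with DMSO. The labels call the cultures duplicates of 1 line and do not say whether they were grown independently.

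m6A is placed on messenger RNA by the METTL3 and METTL14 methyltransferase complex, mostly in long internal exons and around stop codons and 3' ends, and is read by proteins that affect the decay, splicing and translation of the transcript. ANKRD11 is an ankyrin repeat cofactor that binds p160 nuclear receptor coactivators and recruits histone deacetylases. POGZ is a zinc finger protein with a transposase-derived domain that binds heterochromatin protein HP1. TSHZ1 is a teashirt-family zinc finger homeobox protein that acts as a transcriptional repressor. BAHCC1 has a BAH domain that recognises the repressive histone mark H3K27me3.

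Each of the 19 features is a stretch of 50 nt. Every listed feature has a single log ratio and a single p-value for the comparison of the 2 treatments, as the authors deposited them. The table gives no value per library, so no error, replicate spread or depth can be given for any feature. A negative ratio is likely lower m6A signal with decitabine, but the orientation is not stated, and features are called negative or positive here. How input was corrected for is not stated in the labels or the table, so a change in m6A and a change in RNA level cannot be told apart. A fold is the larger over the smaller arm, with the log ratio read as a natural log.

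Negative features predominated in 3 of the 4 genes and positive ones in the remaining gene. Of the 19 features, 15 were negative and 4 positive in the authors' deposited table, where 43.7% of all listed features were negative and 56.3% positive. POGZ held 4 negative features of 4, TSHZ1 4 of 4 and BAHCC1 5 of 5. ANKRD11 held all 4 positive features and 2 negative ones. Among the 126 listed genes with 4 or more features (chromosome Y copies left out), 9 held only negative features (7.14%), 14 only positive ones and 103 both signs (81.7%). POGZ, TSHZ1 and BAHCC1 are 3 of those 9. Because the genes were chosen with these values known, nothing is read from the difference between their counts and the background. At the threshold of the choice, 75 genes held 4 features, among them POGZ and TSHZ1, and 213 genes held 3. Of those with 3, 11 held only negative and 39 only positive features. With a p-value of 0.001 or less, 4 of the 15 negative features and 3 of the 4 positive features remained in the authors' deposited table. No feature of POGZ did. Over all listed features of both signs the share was 52.6%. It was not computed for each sign, so nothing is read from the counts by sign.

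**Figure D1:**
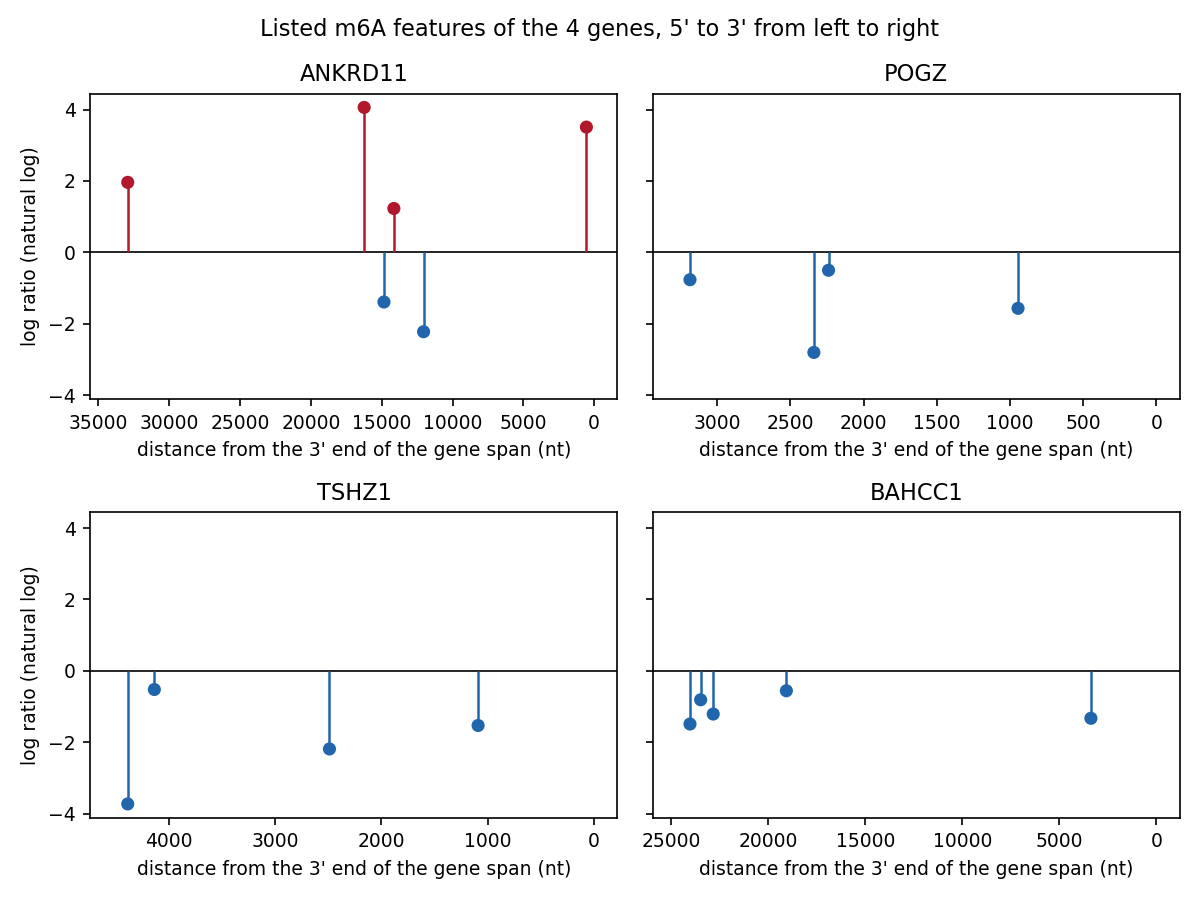
Log ratio (natural log, vertical axis) of each listed feature against its distance in nt to the 3' end of the RefSeq gene span (horizontal axis, 5' to 3' from left to right), 1 panel per gene, red for positive and blue for negative features. POGZ, TSHZ1 and BAHCC1 lie wholly below 0, with 4, 4 and 5 features, while ANKRD11 has 4 features above 0 and 2 below. Distances run along the gene with introns included, and the panels have different horizontal scales.

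ANKRD11 (ENSG00000167522.16) carried 6 features of both signs on the minus strand of chromosome 16, within 32433 nt of a gene span of 222932 nt (89267630 to 89490561, hg38). Read from 5' to 3', the signs were positive, positive, negative, positive, negative and positive. The first feature (89300562 to 89300611) was positive at 7.10-fold with p = 0.0043 in the authors' deposited table, the largest p-value among the 19. It also lies within the span of LOC124903757, a protein-coding model of RefSeq, and its reads could belong to either gene. The second (89283870 to 89283919) was positive at 58-fold with p = 4.0e-05 in the authors' deposited table and led the gene by p-value.

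The 4 features from 89279675 to 89283919 sit close together and alternate in sign. Starts of neighbouring features in this stretch were 1399, 699 and 2097 nt apart. Following the 58-fold feature came a negative one of 4.02-fold (89282471 to 89282520, p = 0.00025), then, again from the authors' deposited table, a positive one of 3.42-fold (89281772 to 89281821, p = 0.00067). A negative feature of 9.25-fold followed (89279675 to 89279724, p = 0.0013), and the last, positive at 33.4-fold in the authors' deposited table (89268179 to 89268228, p = 0.00071), was 549 nt short of the gene's 3' end. The 2 positive features of 33.4-fold and 58-fold exceeded 56.9% and 64.1% of the positive features of the whole table, so ratios of this size were common there. ANKRD11 therefore has no single direction in these data. The same holds for all 8 listed genes with 6 features, ANKRD11 among them, since each held both signs.

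POGZ (ENSG00000143442.22) carried 4 negative features within 2290 nt at the 3' end of its span, on the minus strand of chromosome 1 (151402724 to 151459494). This window is 4.03% of the span. From 5' to 3' the authors' deposited table lists 2.15-fold (151405909 to 151405958, p = 0.0017), 16.5-fold (151405063 to 151405112, p = 0.00105), 1.65-fold (151404963 to 151405012, p = 0.0025) and 4.80-fold (151403669 to 151403718, p = 0.0028). The 16.5-fold and the 1.65-fold features start 100 nt apart, and their ratios differ by 9.99 times. The log ratio of the smaller, -0.50, lies just inside the table's limit, since the smallest absolute log ratio listed for any feature is 0.50. The 4 features share their sign but not their size.

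TSHZ1 (ENSG00000179981.10) carried 4 negative features near the 3' end of its span, on the plus strand of chromosome 18 (75210797 to 75289944). They lie in a window of 3343 nt, 4.22% of the span. The first (75285511 to 75285560) was at 41.7-fold with p = 0.0026 in the authors' deposited table, the largest negative ratio of the 4 genes. The second starts 250 nt further on, and the authors' deposited table puts it at 1.69-fold (75285761 to 75285810, p = 0.0017). The third (75287407 to 75287456) was at 8.93-fold with p = 1.8e-05 in the authors' deposited table, the smallest p-value among the 19. The last, 1091 nt short of the 3' end, was put at 4.62-fold by the authors' deposited table (75288804 to 75288853, p = 0.0020). The largest and the smallest fold of TSHZ1 thus belong to neighbouring features and differ by 24.7 times. With the sign left aside, this is the widest range of folds within any of the 4 genes. With the sign kept, ANKRD11 has the widest range, from 58-fold positive to 9.25-fold negative.

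BAHCC1 (ENSG00000266074.8) carried 5 negative features of modest and similar size on the plus strand of chromosome 17 (span 81395457 to 81466331). The first 3 lie together, with starts 549 and 648 nt apart. The authors' deposited table lists them at 4.44-fold (81442237 to 81442286, p = 4.2e-05), 2.25-fold (81442786 to 81442835, p = 0.00022) and 3.36-fold (81443434 to 81443483, p = 0.0011). Further 3', the authors' deposited table has a feature at 1.75-fold (81447205 to 81447254, p = 0.0020) and, starting 15700 nt beyond it, the last at 3.78-fold (81462905 to 81462954, p = 0.0014). With the sign left aside, the folds of BAHCC1 spanned 2.54 times, against 9.99 times in POGZ, 17.0 times in ANKRD11 and 24.7 times in TSHZ1. For ANKRD11, whose features have both signs, this leaves out the distance between positive and negative features.

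**Figure D2:**
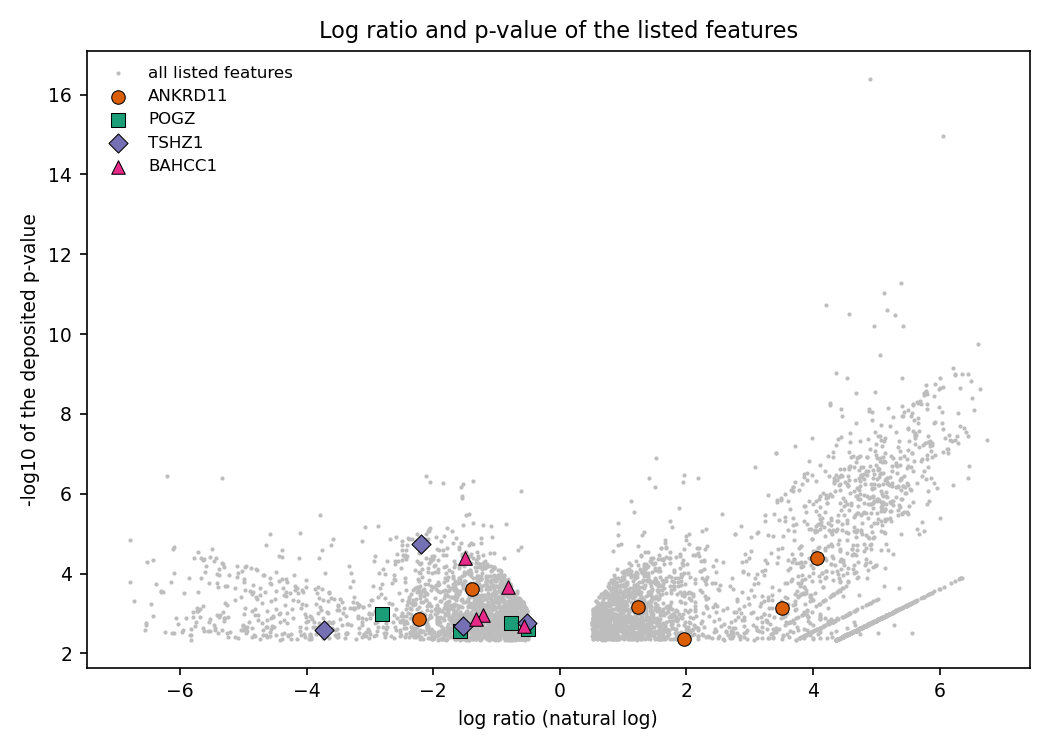
Log ratio (natural log, horizontal axis) against -log10 of the deposited p-value (vertical axis) for all listed features (grey) and the features of ANKRD11, POGZ, TSHZ1 and BAHCC1 (coloured shapes). The 15 negative features of the 4 genes have p-values between 1.8e-05 and 0.0028, and ANKRD11 alone has points to the right of 0. The 1 listed feature with a log ratio above 10, of another gene, is not drawn.

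The negative features of the 4 genes were close in median size to all listed negative ones, and the positive features had a higher median. Over both signs the median of the 19 was 4.44-fold, against 5.17-fold over all listed features. The 15 negative ones had a median of 4.02-fold against 3.95-fold over all negative features. For the 4 positive ones, all of ANKRD11, the median was 20.3-fold against 10.1-fold over all positive features. Of the 19, 4 reached 10-fold (21.1%), against 38.5% of all listed features. The 4 genes hold a larger share of negative features than the whole table, so the values over both signs compare unlike mixes. The median ratio by gene was 8.11-fold in ANKRD11 (over both signs), 6.42-fold in TSHZ1, 3.36-fold in BAHCC1 and 3.22-fold in POGZ. With no error on any ratio, the order of the genes cannot be tested.

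Most of these ratios are quotients of whole numbers, and the larger ratios mostly have small divisors. Each fold was searched for a numerator of at most 2000 and a denominator of at most 1000 that gave it to a relative tolerance of 5e-09. The limit on the numerator allows only smaller denominators for larger folds, so the link of larger ratios with small divisors is partly set by the search. Such a pair was found for 18 of the 19 features and for 4433 of the 4626 listed ones (95.8%), and for 14 when the log was read as base 2. In lowest terms the 58-fold feature of ANKRD11 is 58 to 1, its 33.4-fold feature 167 to 5 and its 9.25-fold feature 37 to 4. The 41.7-fold feature of TSHZ1 is 125 to 3 and its 8.93-fold feature 241 to 27. In POGZ the 16.5-fold feature is 479 to 29, whereas its 1.65-fold feature is 825 to 499. BAHCC1 ranges from 47 to 14 for its 3.36-fold feature up to 1488 to 851 for its 1.75-fold feature. What these whole numbers count is not stated, and a common factor may have been divided out. Ratios that are whole multiples of 0.5 made up 1 of the 19 (the 58-fold feature of ANKRD11), against 30.6% of all listed features. Without that feature ANKRD11 is led by the negative 4.02-fold one, and all 4 genes then have a negative leading feature. The share over all listed genes was not computed in that setting, so nothing particular to the 4 genes is read from this. By the smallest p-value of each gene with all features kept, 1 gene was positive and 3 negative, where 58.9% of the 3114 listed gene names were led by a positive and 41.1% by a negative feature.

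All 19 features lay inside the RefSeq span of their gene, toward its 3' end. Of the 19, 15 began in the last 20% of the span, against 52.0% of the 4240 listed features that lay inside a span matched by symbol. The exceptions were 4 features of BAHCC1, at 66.0% to 73.0% of the span counted from the 5' end. The median position was 94.4% of the span for the 4 genes and 81.5% for all such features. In nucleotides, introns included, the median distance to the 3' end was 4384 for the 4 genes and 4021.5 for all. Features of 1 gene share their transcript, so they do not count as independent positions, and exons and UTRs were not annotated here.

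The partners and relatives of the 4 proteins carried listed features of both signs. Of 41 such genes, 12 were listed, of which 6 were led by a positive and 6 by a negative feature. Over all listed gene names, 58.9% were led by a positive and 41.1% by a negative feature. The share of all genes that are listed was not computed. The 12 partner genes held 27 features, 13 positive and 14 negative, with a median of 3.87-fold. Over all listed features, 56.3% were positive and 43.7% negative, with a median of 5.17-fold. All 7 of the partner genes with several features held both signs, where 58.4% of the 946 listed genes with 2 or more features held both and 14.9% only negative ones. Nothing particular to the partner genes is read from these counts. Without ratios that are multiples of 0.5, 1 partner gene (CTBP2) was led by a positive and 9 by a negative feature. The 6 partner features left out were all positive, so leading signs could only move toward negative. The share over all listed genes was not computed in that setting, and nothing particular to the partner genes is read from it. ADNP2, TNRC18 and TSHZ3 changed to a negative leading feature in that setting, and ADNP and CHD4 had no feature left.

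Of the 10 partners of ANKRD11 examined, 1 was listed, led by a negative feature. NCOA3, a p160 coactivator, was led by a negative 1.91-fold feature (p = 0.0022), with a negative 34.7-fold and a positive 2.30-fold feature besides, in the authors' deposited table. HDAC3 and the ANKRD11 paralogue ANKRD12 had no row in the table as used here.

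Among the partners of POGZ, 5 of 11 were listed, 3 led by a positive and 2 by a negative feature. The homeobox zinc finger gene ADNP, whose protein binds HP1 and the remodeller CHD4, held 1 positive feature of 104-fold (p = 3.8e-06), and CHD4 1 positive feature of 60.5-fold (p = 7.8e-06), in the authors' deposited table. ADNP2, a relative of ADNP, held 4 negative features between 2.67-fold and 6.22-fold around a positive one of 90-fold (p = 1.5e-06) in the authors' deposited table. CHAMP1, a zinc finger protein of the kinetochore and of heterochromatin, was led by a negative 3.95-fold feature (p = 1.9e-05) and its positive ones in the authors' deposited table were at 3.07-fold and 66.5-fold. POGK, another gene with a pogo-derived domain, was led in the authors' deposited table by a negative 2.42-fold feature (p = 0.00033), beside a positive one of 2.00-fold. The HP1 genes CBX1, CBX3 and CBX5 had no row.

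Of the 4 partners of TSHZ1, the paralogue TSHZ3 and the corepressor CTBP2 were listed, both led by a positive feature. TSHZ3 held positive features of 211-fold (p = 0.00079) and 3.65-fold and a negative one of 5.43-fold in the authors' deposited table. CTBP2 held a positive feature of 3.56-fold (p = 7.5e-05) in the authors' deposited table. The 211-fold ratio is a whole multiple of 0.5, and without it TSHZ3 is led by its negative 5.43-fold feature (p = 0.0011 in the authors' deposited table), the sign of all 4 features of TSHZ1. TSHZ3 thus had a positive or a negative leading feature depending on that 1 feature.

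Among the partners of BAHCC1, 4 of 16 were listed, 1 led by a positive and 3 by a negative feature. TNRC18, the closest relative of BAHCC1, was led by a positive feature of 150-fold (p = 3.0e-06) and also held a positive one of 1.87-fold and, in the authors' deposited table, negative ones of 8.72-fold and 2.33-fold. SUZ12, a core subunit of the complex that writes H3K27me3, held 1 negative feature of 3.11-fold (p = 6.5e-05) in the authors' deposited table. JARID2, a cofactor of that complex, was led by a negative 3.15-fold feature (p = 0.00019), with a positive one of 1.77-fold, in the authors' deposited table. RCOR1, a corepressor that joins histone deacetylases to a demethylase, held 1 negative feature of 3.87-fold (p = 0.00017) in the authors' deposited table. EZH1 and EZH2, the catalytic subunits of the complex with SUZ12, had no row.

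**Figure D3:**
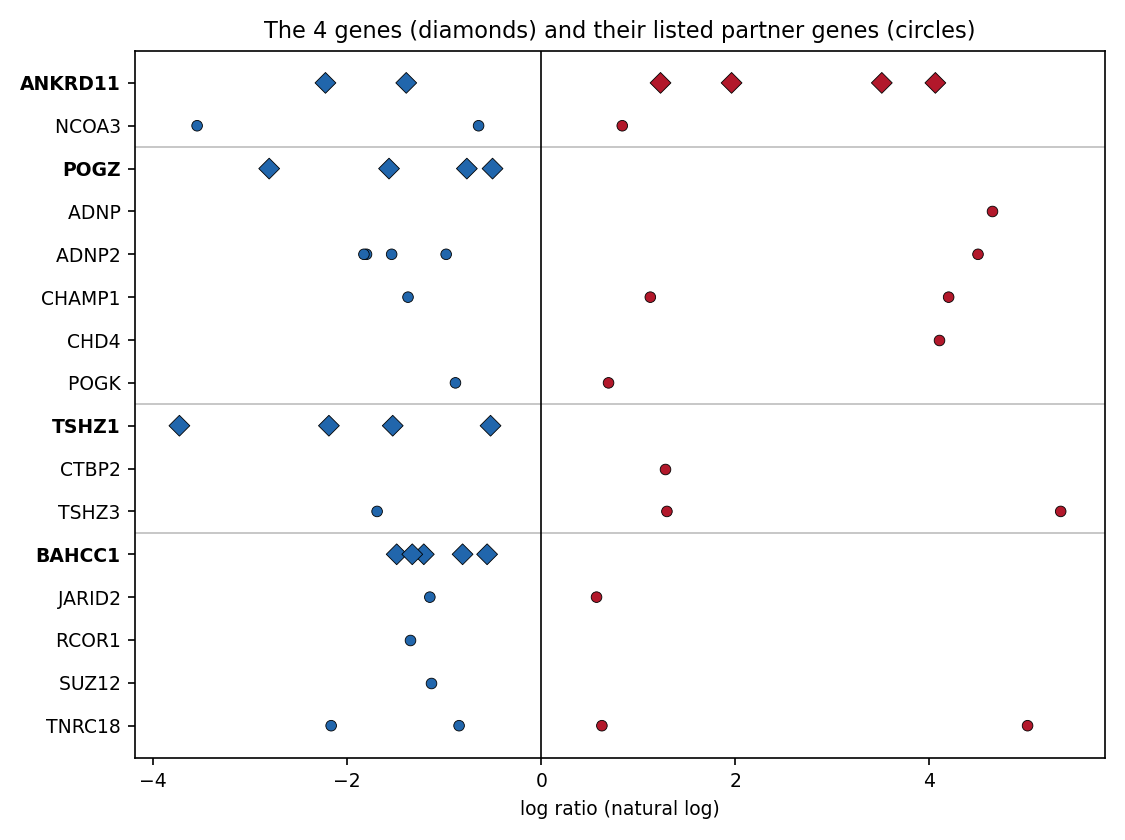
Log ratio (natural log, horizontal axis) of every listed feature of ANKRD11, POGZ, TSHZ1 and BAHCC1 (diamonds) and, under each, of its listed partner genes (circles), red for positive and blue for negative. All 7 partner genes with several features have points on both sides of 0, as do 58.4% of the 946 listed genes with 2 or more features. POGZ, TSHZ1 and BAHCC1, chosen with these values known, have no points to the right, and nothing is read from the contrast.

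Genes without a row cannot be read as unchanged. The smallest absolute log ratio in the table was 0.50 and the largest p-value 0.0045, so features with a smaller ratio or a larger p-value are absent for every gene. The same limit holds for the check of cell identity. Of 10 promyelocytic marker genes, SPI1 and CSF3R were listed, and 0 of 8 erythroid and lymphoid ones. SPI1 had a negative feature of 2.38-fold (p = 0.0011) and CSF3R one of 17.5-fold (p = 9.9e-05) in the authors' deposited table, but a list of changed features shows no expression level.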

How the data were processed

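m6A and input libraries of HL-60 cells were compared by the authors, and only their table of that comparison was used. Per the submitters' processing notes, STAR 2.7.3a and the build hg38 were used, and the tool that scored features is unnamed in the labels and the table. The authors deposited a log ratio per feature, whose header names no base, and a p-value not marked as adjusted. These deposited values were taken as natural log ratios of decitabine and DMSO, since the exponential is then a quotient of whole numbers for most features. Per the file headers there are no library values, so no depth is known and no model was fitted. All features of the 4 genes and of 41 partner genes are named, each gene led by its smallest p-value, and 1 further gene of the list is not reported here. The members and lists were chosen with earlier results of these data known. Positions were read as 1-based on hg38, and gene spans came from RefSeq GRCh38.p14. No reference genome was used, so no feature sequence is printed. Alternatives left out ratios that are multiples of 0.5 (relative tolerance 1e-08), required p of 0.001 or less, required the RefSeq span, chose the leading feature by ratio, or read the log as base 2. Python 3.11.15, pandas 2.3.3, numpy 2.4.6 and matplotlib 3.10.9 were used.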

Additional observations from a re-analysis of the deposited data

How the results depend on the processing

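Of 17 alternative values for the 7 results, 14 stayed within 1.5 times of the reported value. The base 2 and RefSeq span alternatives among these were bound to, so the count is no measure of robustness. With p of 0.001 or less, 4 of the 15 negative and 3 of the 4 positive features of the 4 genes remained. Of those kept, ANKRD11 held 4, BAHCC1 2 and TSHZ1 1, and no feature of POGZ was kept. Over all listed features of both signs, 52.6% remained. Without ratios that are multiples of 0.5, 0 of the 4 genes had a positive leading feature, the median absolute log ratio went from 1.49 to 1.44, and 1 partner gene had a positive leading feature. Leading signs over all listed genes were not computed in that setting. With the log read as base 2 the median absolute log ratio was 1.03 on the natural log scale, a rescaling by the same factor for every feature. Requiring the RefSeq span changed no count of features of the 4 genes, since all 19 lie inside their span. No replicate could be left out, and no paired analysis was possible because the deposited table holds no value per library. The depth behind each ratio is unknown, which limits every value.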
